A study of Arabidopsis thaliana with 12 samples.

Results

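Described here are 43 nuclear genes whose transcripts were all but absent from wild-type seedlings and present in every library of the chromatin remodeling mutant pkl. A gene was taken if its RPKM (reads per kilobase of gene, scaled to the total of the library) was at most 0.1 in each of the 3 WT libraries and at least 0.2 in each of the 3 pkl libraries. Of 33323 nuclear genes in the table, 10764 met the WT part of this rule and 46 met both parts. 3 of the 46, AT1G66040, AT4G27170 and AT5G07530, were left out by name when the rule was written. The levels in WT and pkl chose the genes, so differences of these genes from WT or pkl are given below as a description, without a p-value. The levels in nrpd1 and nrpe1 took no part in the choice, and the difference between them was tested. The spread in that test was pooled over all 12 libraries, WT and pkl among them, so it is not independent of the rule.

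mRNA was sequenced from seedlings of Arabidopsis thaliana at 2 weeks of age, raised on agar plates at 22°C with 12 h of light and 12 h of darkness. The groups were WT, pkl (allele pkl-1), nrpd1 (nrpd1-3) and nrpe1 (nrpe1-11), each mutant represented by a single line, with 3 libraries a group. Nothing states whether the libraries of a group came from separate sowings, so p-values measure the spread between these libraries, which may be partly technical. The comparison asks whether genes that depend on PKL for silencing also depend on RNA-directed DNA methylation (RdDM).

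PKL, or PICKLE, encodes a CHD-type ATP-dependent remodeler that slides or places nucleosomes. It is best known for keeping embryonic genes off in seedlings, and many of its targets carry the Polycomb mark H3K27me3. In RdDM, polymerase IV (largest subunit NRPD1) makes the precursors of 24-nt siRNAs, and polymerase V (largest subunit NRPE1) makes scaffold transcripts at which those siRNAs direct DNA methylation. Both polymerases act mainly at transposons and repeats, and at a few genes that have repeats in their promoters.

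Library totals ranged from 15242073 to 21475250 reads, except for nrpe1 replicate 2 with 7204299. One read in a gene of 1 kb was worth 0.139 RPKM in that library and 0.0466 to 0.0656 in the others. The RPKM values were whole multiples of 1 read, so read numbers are given beside them. Transcripts of the mutated genes were still detected in their own mutants, at 22.7 ± 3.48 RPKM (SD, n = 3) for PKL in pkl, 1.03 ± 0.23 for NRPD1 in nrpd1 and 0.641 ± 0.24 for NRPE1 in nrpe1. PKL was at 18.3 ± 3.63 RPKM in WT, in a range that overlapped pkl, so its level does not check that label. NRPD1 was lower in nrpd1 than in nrpe1 (log2 difference -1.15, limma adjusted p = 0.0375) and NRPE1 the reverse (1.71, limma adjusted p = 0.0263). Against WT neither difference passed: NRPD1 was at 1.42 ± 0.17 RPKM in WT (log2 difference of nrpd1 -0.45, limma adjusted p = 1) and NRPE1 at 1.83 ± 0.45 (log2 difference of nrpe1 -1.41, limma adjusted p = 0.117). NRPD1 was at 2.36 ± 0.13 RPKM in nrpe1. Leaf markers (4 genes, among them RBCS1A) summed to 15793 to 28060 RPKM and root markers (3 genes, among them PYK10) to 1022 to 1667 RPKM over all 12 libraries. The 7 pollen markers summed to at most 0.46 RPKM and the 7 tapetum markers to at most 4.77 RPKM, nearly all of it LAP6. The 5 seed storage markers summed to 12.5 RPKM in pkl replicate 1, 0.052 in replicate 2 and 1.39 in replicate 3, against at most 0.291 in any other library. The part of these seed transcripts in the levels of the 43 genes was not tested. In whole seedlings, more cells that use a gene and more RNA per cell cannot be told apart.

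40 of the 43 genes code for proteins, AT1G75610 and AT2G26630 are pseudogenes, and AT2G46255 is the precursor gene MIR159c. They lie on all 5 chromosomes, 9, 11, 10, 7 and 6 of them on chromosomes 1 to 5. The only genes among them with at most 1 gene in between were AT4G38870 and ASE3, which are direct neighbours. No read was found in any WT library for 15 of the 43, and no WT library held more than 3 reads of any of them. Upstream of the start, 22 of the 40 protein-coding genes (55%) had a TATA box (TATAAA on either strand, within 250 bases), against 47.3% of all 27443 protein-coding genes in the RefSeq annotation. An RY element (CATGCA), the motif of seed regulators, was found in 4 (10%, against 8.43%), a G-box (CACGTG) in 2 (5%, against 6.49%), a GA repeat (GAGAGAGA) in 2 (5%, against 4.91%) and a telobox (AAACCCTA) in 4 (10%, against 4.49%). None of these motifs contains another, and a match is only a match of letters.

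The sequences upstream of the genes on which the results turn are shown because the genes differ sharply here. All are from the RefSeq copy of TAIR10.1, 5′ to 3′ on the strand of the gene. That of SDC (chr2:7681862-7682161, plus strand), a gene long known to be silenced through methylation of tandem repeats, ends at the base before the annotated start, and its capitals mark 6 copies of a 32-base unit, each with at most 8 mismatches to the unit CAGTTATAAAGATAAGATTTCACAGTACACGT. The first copy begins 299 bases before the start and the last leaves 76 bases to it. The unmarked stretch between the first and second marked copies also resembles the unit but is a base shorter, and was not counted. A word of 12 bases (with at least 3 different bases) occurs 5 times in this window. No other of the 40 protein-coding genes had such a word 4 times or more in 300 bases, and 36 of 27443 genes did (0.131%).
SDC: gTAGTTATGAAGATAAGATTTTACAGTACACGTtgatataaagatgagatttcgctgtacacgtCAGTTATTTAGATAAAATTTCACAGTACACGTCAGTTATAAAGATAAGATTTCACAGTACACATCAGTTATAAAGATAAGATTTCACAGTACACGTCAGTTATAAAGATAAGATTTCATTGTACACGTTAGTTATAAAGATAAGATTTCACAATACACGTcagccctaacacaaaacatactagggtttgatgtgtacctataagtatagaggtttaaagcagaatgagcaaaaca
Those of AT1G20795 (chr1:7227567-7227816, minus strand), AT1G33850 (chr1:12288211-12288460, minus strand) and AT3G23060 (chr3:8200386-8200635, plus strand) hold no such repeat. Capitals mark a telobox in the first and a TATA box in the others.
AT1G20795: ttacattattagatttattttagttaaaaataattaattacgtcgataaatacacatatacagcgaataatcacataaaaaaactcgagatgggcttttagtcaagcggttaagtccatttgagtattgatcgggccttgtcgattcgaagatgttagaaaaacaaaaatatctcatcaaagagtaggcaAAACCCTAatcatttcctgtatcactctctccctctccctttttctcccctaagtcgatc
AT1G33850: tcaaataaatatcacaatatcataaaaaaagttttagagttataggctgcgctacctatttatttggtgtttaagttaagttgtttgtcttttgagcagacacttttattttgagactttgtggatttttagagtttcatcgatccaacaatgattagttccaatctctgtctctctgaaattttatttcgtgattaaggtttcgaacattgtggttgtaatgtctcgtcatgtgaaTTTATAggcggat
AT3G23060: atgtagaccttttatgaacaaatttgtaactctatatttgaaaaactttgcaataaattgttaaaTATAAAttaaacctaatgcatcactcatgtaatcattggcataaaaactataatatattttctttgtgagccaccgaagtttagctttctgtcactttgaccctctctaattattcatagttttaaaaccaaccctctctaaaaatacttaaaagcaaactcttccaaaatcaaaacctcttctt
AT4G38870 (minus strand) and ASE3 (plus strand) start 252 bases apart and point away from each other. The stretch between them (chr4:18133864-18134115, written on the plus strand, so that AT4G38870 begins to its left and ASE3 to its right) has 3 TATA boxes, in capitals.
AT4G38870 to ASE3: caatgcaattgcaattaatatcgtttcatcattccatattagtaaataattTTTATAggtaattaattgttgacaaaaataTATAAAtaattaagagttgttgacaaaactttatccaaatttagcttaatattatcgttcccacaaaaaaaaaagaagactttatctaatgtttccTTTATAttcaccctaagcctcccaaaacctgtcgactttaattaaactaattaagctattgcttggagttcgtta
The mature miRNA of MIR159c is annotated at chr2:18994826-18994846 on the plus strand, with its seed (bases 2 to 8) in capitals. The miR159 family is known for cutting the mRNAs of GAMYB-like transcription factors.
miR159c: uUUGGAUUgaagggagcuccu

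**Figure D1:**
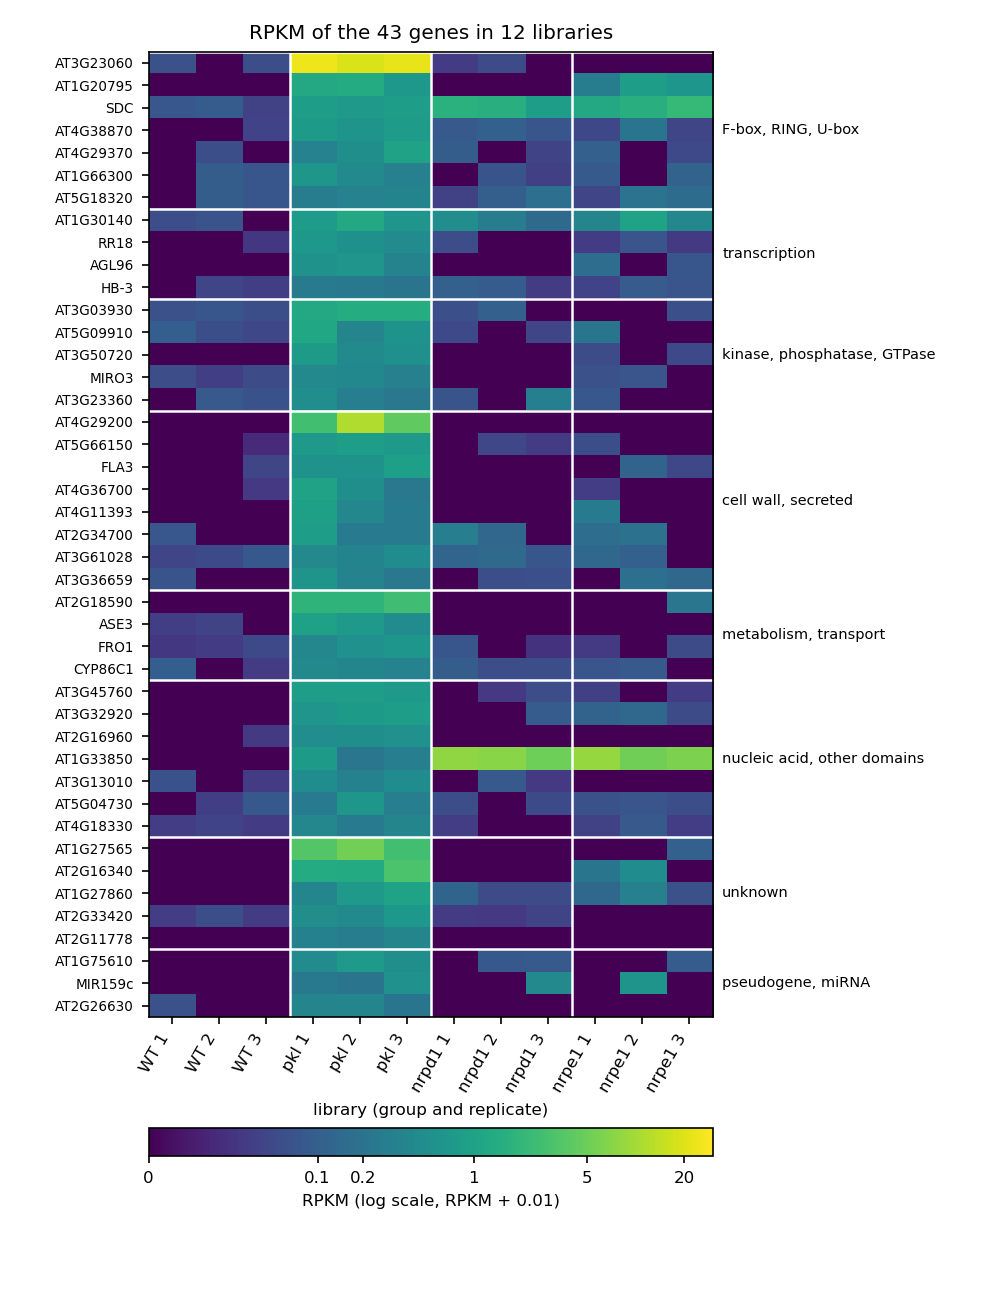
RPKM of the 43 genes (rows, grouped by the kind of product, highest mean in pkl first) in each of the 12 libraries (columns, 3 for each of WT, pkl, nrpd1 and nrpe1), on a log colour scale. All rows are dark in WT and lit in pkl by the rule. In nrpd1 and nrpe1 most rows are as dark as in WT, and the brightest there are AT1G33850 (5.19 to 8.49 RPKM) and SDC (0.856 to 2.11 RPKM). In nrpe1, AT1G20795 (0.288 to 0.883 RPKM) and AT1G30140 (0.371 to 0.997 RPKM) are also lit.

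In pkl, 36 of the 43 genes had a mean under 1 RPKM, and the median of the means was 0.565 RPKM. 1 gene alone, AT3G23060, took 40.2% to 52.6% of the reads of the set in a pkl library. It encodes a RING/U-box protein, a fold found in ubiquitin ligases. Its RPKM was 24.4, 18.8 and 21.9 in the 3 pkl libraries (793, 724 and 628 reads), 0.062, 0 and 0.0575 in WT, 0.0301, 0.0528 and 0 in nrpd1, and 0 in all 3 nrpe1 libraries. No library outside pkl held more than 2 of its reads, so the mean in pkl was at least 225-fold that which 3 reads in each WT library would give. AT3G23070, the gene that begins 57 bases downstream of it on the same strand, was at 14.9 ± 0.545 RPKM in WT and 20.5 ± 0.039 in pkl (log2 difference 0.46, SE 0.11, limma adjusted p = 0.0532, n = 3). AT3G23050, the gene on its other side, fell from 85.7 ± 5.94 RPKM in WT to 50.7 ± 3.29 in pkl, by 0.76 on the log2 scale (SE 0.12, limma adjusted p = 0.00872), which is less than the 2-fold change a call needed.

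AT4G29200, annotated as related to beta-galactosidases, was the next highest, at 2.69, 11.5 and 4.19 RPKM (67, 339 and 92 reads) in the pkl libraries. It had no read in any of the other 9 libraries. Its pkl replicates differed the most of all 43 genes, 4.28-fold between the highest and the lowest. AT2G11778, of unknown function, was the only other gene with no read outside pkl, but it is 168 bases long and rests on 1 read in each pkl library.

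AT1G27565, of unknown function, was at 3.53, 5.52 and 2.68 RPKM in pkl (33, 61 and 22 reads) and had 1 read in the other 9 libraries together. Its exons are matched over 100% of their length by AT1G52905 at an identity of at least 95%, which was at 10.5 to 14.2 RPKM in WT and 11.5 to 21.0 in pkl, so the reads of this pair may have been split between them. AT2G18590, a transporter of the major facilitator superfamily, was at 1.80, 1.84 and 2.57 RPKM in pkl (48, 58 and 60 reads). Its only other reads were 6 in nrpe1 replicate 3 (0.224 RPKM).

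AT2G16340, an unknown protein of short length, was at 1.35, 1.31 and 3.08 RPKM in pkl on 7, 8 and 14 reads, and had 1 read each in nrpe1 replicates 1 and 2. AT3G03930 encodes a kinase-like protein and was at 1.24, 1.42 and 1.41 RPKM in pkl, a 1.14-fold range. In WT it was at 0.0626, 0.0739 and 0.058 RPKM, 1 read in each library, and nrpd1 and nrpe1 had 0 to 2 reads. AT3G45760, a nucleotidyltransferase family protein, was at 0.866, 0.868 and 0.730 RPKM in pkl on 27, 32 and 20 reads, with no read in WT and at most 2 in any nrpd1 or nrpe1 library.

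The lower genes of the set rest on few reads. More than 3 reads in each pkl library were found for 35 of the 43. The others were AT4G11393, AT2G34700, AT1G33850, AT3G36659, AT3G23360, MIR159c, AT2G11778 and AT2G26630, and for AT1G33850, MIR159c and AT2G11778 no pkl library had more than 3. Of all 43 genes, 16 differed by more than 2-fold between the highest and the lowest pkl library. 19 were highest in replicate 1, 10 in replicate 2 and 14 in replicate 3. Presence in all 3 pkl libraries was required by the rule and is no result.

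**Figure D2:**
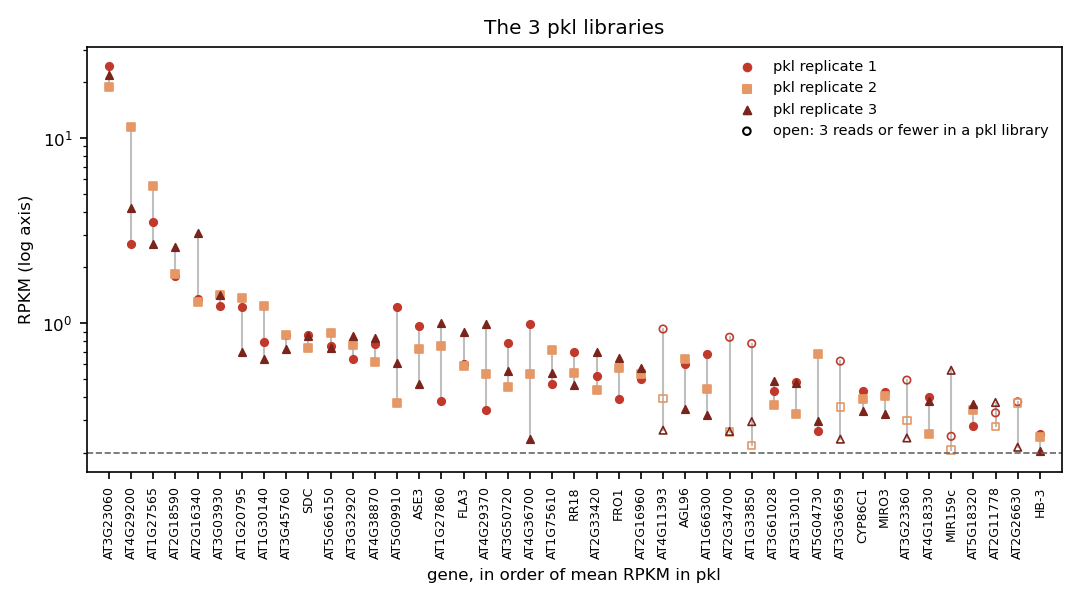
RPKM (log axis) of each of the 43 genes in the 3 pkl libraries, 1 symbol for each replicate, joined by a line, in order of the mean. Open symbols mark the 8 genes with 3 reads or fewer in a pkl library, and the dashed line is the limit of 0.2 RPKM. AT3G23060 stands alone near 20 RPKM, AT4G29200 has the widest spread, and most genes lie between 0.2 and 1 RPKM.

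At the limit in pkl, the genes just inside were HB-3, MIR159c and AT2G26630, whose lowest pkl library was at 0.205, 0.207 and 0.214 RPKM. Just outside were AT1G55800, AT4G16355 and AT3G27416, at 0.197, 0.187 and 0.186 RPKM. At the limit in WT, the highest library was at 0.0997 RPKM for CYP86C1, 0.0983 for AT5G09910 and 0.0957 for AT1G66300 inside the rule, and at 0.102 for AT4G20920, 0.103 for AT2G32275 and 0.107 for AT1G70080 outside it. The limits thus cut through a continuous range of low values.

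By their products, 7 of the genes belong to ubiquitination, in which a ligase marks proteins for breakdown. They are AT3G23060, the U-box protein AT5G18320 and 5 F-box genes (AT1G20795, AT1G66300, SDC, AT4G29370 and AT4G38870), whose products choose the substrate of SCF ligases. F-box genes were 12.5% of the 40 protein-coding genes, 9.22% of the 5020 protein-coding genes that met the WT part of the rule, and 2.93% of all protein-coding genes. The share thus lay nearer to that of genes silent in WT than to that of all genes. Apart from AT3G23060, their means in pkl ran from 0.327 RPKM (AT5G18320) to 1.10 RPKM (AT1G20795).

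4 genes encode transcription factors or similar proteins, with means in pkl of 0.234 to 0.892 RPKM. HB-3, also known as WOX9 or STIMPY, is a homeodomain factor that keeps meristem cells dividing. It was at 0.253, 0.244 and 0.205 RPKM in pkl on 7, 8 and 5 reads, the lowest mean of the set. RR18 is a type-B response regulator, a class that mediates cytokinin responses, and its pkl libraries were at 0.695, 0.539 and 0.461 RPKM on 24, 22 and 14 reads. AGL96, a MADS-box gene, was at 0.605, 0.639 and 0.344 RPKM, and AT1G30140 encodes a protein with a Myb/SANT-like DNA-binding domain.

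5 genes encode proteins of signalling: the kinases AT3G03930 and AT3G50720, the phosphatase AT3G23360 (family 2C), the Ras-related GTPase AT5G09910 and MIRO3, of a family of mitochondrial GTPases. Their means in pkl ran from 0.343 to 1.36 RPKM. AT5G09910 was uneven, at 1.22, 0.371 and 0.610 RPKM in pkl. 8 genes encode proteins of the cell wall or secreted proteins, or enzymes of such classes: FLA3 (a fasciclin-like arabinogalactan protein, known from pollen), AT2G34700 (Ole e 1 and extensin family), AT3G36659 (an inhibitor of invertase or pectin methylesterase), AT4G29200, AT5G66150 (glycosyl hydrolase family 38), AT3G61028 (a putative endonuclease or glycosyl hydrolase), AT4G36700 (a cupin, the fold of seed storage globulins) and AT4G11393 (defensin-like). Apart from AT4G29200 no mean of theirs exceeded that of AT5G66150, 0.793 ± 0.083 RPKM (SD, n = 3). AT4G36700 was at 0.987, 0.531 and 0.238 RPKM in pkl replicates 1, 2 and 3. Like the seed storage markers it was highest in replicate 1, while replicates 2 and 3 stood in the other order.

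4 genes belong to metabolism and transport: AT2G18590, FRO1 (a ferric chelate reductase of the iron uptake family), CYP86C1 (a cytochrome P450 of a family of fatty acid hydroxylases) and ASE3 (glutamine phosphoribosyl pyrophosphate amidotransferase, the entry to purine synthesis). FRO1 was at 0.391, 0.572 and 0.651 RPKM in pkl. The gene whose protein is annotated as the best match to it, AT1G23020, was at 12.7 to 18.8 RPKM in WT and rose to 22.9 to 34.4 RPKM in pkl (log2 difference 1.01, limma adjusted p = 0.0174). It was the only one of 26 such best matches tested that was called in pkl. Of all features, 0.984% were called higher in pkl and 0.913% lower. In WT, 20 of the 38 best matches with a value were at 1 RPKM or more and 12 were under 0.1 RPKM.

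7 genes have other domains: AT3G32920 (P-loop ATPase fold), AT3G45760, AT4G18330 (EF1A or IF2gamma family), AT1G33850 (ribosomal protein S19 family), AT3G13010 (derived from a hAT transposon), AT2G16960 (ARM repeats) and AT5G04730 (ankyrin repeats). The remaining 5 protein-coding genes, AT1G27565, AT1G27860 (DUF626), AT2G33420 (DUF810), AT2G11778 and AT2G16340, have no known role. The pseudogene AT1G75610 was at 0.472, 0.718 and 0.536 RPKM in pkl on 5, 9 and 5 reads, AT2G26630 at 0.376, 0.371 and 0.214 on 6, 7 and 3, and MIR159c at 0.245, 0.207 and 0.557 on 1, 1 and 2. An expression note, which lists tissues and stages of earlier detection, was attached to 35% of the 40 protein-coding genes, against 21.9% of the protein-coding genes silent in WT and 49.3% of all.

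7 genes had a near-identical copy (at least 95% identity) over 20% or more of their exons, and how reads that fit both places were counted is not stated. Besides AT1G27565 these were AT1G75610 (85.9% of its length, copy AT1G75600), AT2G26630 (85.6%, AT4G04635), AT1G33850 (68.5%, AT5G43640), AT3G61028 (50.1%, AT3G60940), AT1G27860 (30.7%, AT1G28500) and AT3G32920 (24.2%, AT2G19490). AT1G75600 and AT3G60940 were themselves at 0.0672 and 0.108 RPKM in WT and 0.275 and 0.332 in pkl, and neither passed the test. 7 genes overlap another locus. SDC shares 1303 bases with AT2G17695 on the opposite strand, which was at 37.8 to 49.5 RPKM in WT and 53.8 to 64.3 in pkl, but at 39.0 to 49.7 in nrpd1 and 39.0 to 45.0 in nrpe1. The libraries were stranded, though whether strand was used in counting is not stated.

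In nrpd1 and nrpe1 most of the set stayed near the levels of WT. The median of the means was 0.031 RPKM in nrpd1 and 0.0518 RPKM in nrpe1, against 0.0192 in WT and 0.565 in pkl. 33 of the 43 genes had at most 3 reads in every nrpd1 and nrpe1 library, which at this depth is not detectable, and 5 (AT4G29200, ASE3, AT2G16960, AT2G11778 and AT2G26630) had none at all. A level of at least 0.2 RPKM in all 3 libraries was reached by 2 genes in nrpd1 (AT1G33850 and SDC, 4.65% of the set) and by 4 in nrpe1 (AT1G33850, SDC, AT1G20795 and AT1G30140, 9.30%). Among the 10764 nuclear genes silent in WT the same was true of 15 in nrpd1 (0.139%) and 19 in nrpe1 (0.177%). Only 2511 of the 10764 had a read in any library, as all 43 do by the rule, and of these 2511 the shares were 0.597% and 0.757%. Read the other way, the set held 13.3% of the silent genes that were on in nrpd1 and 21.1% of those on in nrpe1. All these shares of the set count AT1G33850, which had only 3, 1 and 1 reads in the pkl libraries, not above the 3-read floor.

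**Figure D3:**
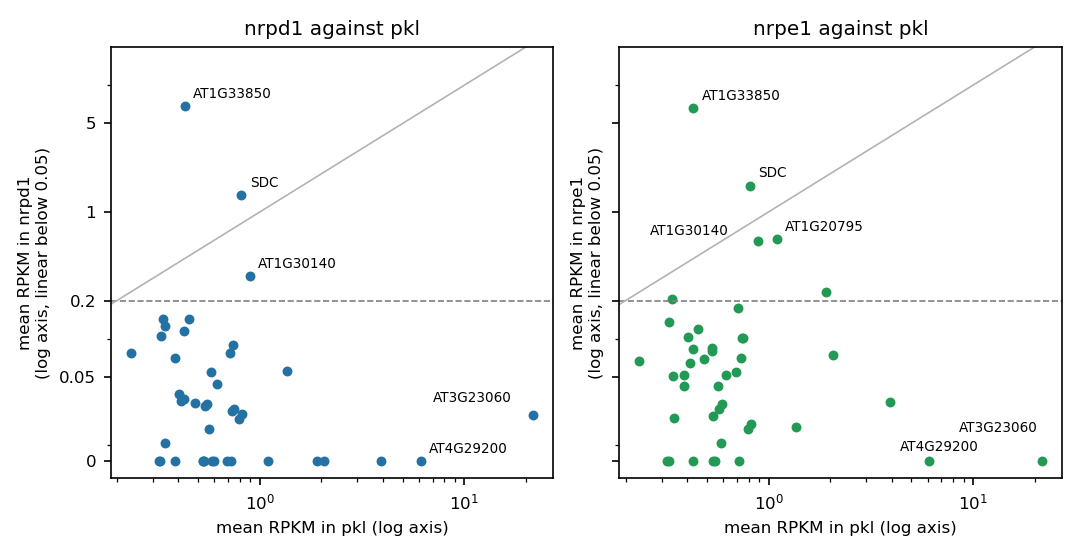
Mean RPKM of each of the 43 genes in nrpd1 (left) and nrpe1 (right) against its mean in pkl, on log axes (linear below 0.05 RPKM on the vertical axis). The dashed line is 0.2 RPKM and the grey diagonal marks equal levels. AT1G33850 and SDC lie above the diagonal in both mutants, AT1G20795 and AT1G30140 lie just below it in nrpe1, and the genes highest in pkl lie at or near 0.

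AT1G33850, a gene for a ribosomal protein S19 family protein with 213 bases of exons, was the one member far higher in the RdDM mutants than in pkl. It was at 7.85, 7.33 and 5.19 RPKM in nrpd1 (31, 33 and 23 reads) and 8.49, 5.21 and 6.17 RPKM in nrpe1 (30, 8 and 24 reads). In WT it had no read, and in pkl it was at 0.776, 0.219 and 0.294 RPKM on 3, 1 and 1 reads. The ranges of nrpd1 and nrpe1 overlapped, and every library of both lay above every library of WT and pkl. Its mean was at least 8.38-fold that of 3 reads in each WT library in nrpd1, and at least 8.17-fold in nrpe1. On the log2(RPKM + 0.1) scale, which understates the change of low genes, its difference from WT was 6.08 in nrpd1 (SE 0.35) and 6.04 in nrpe1 (SE 0.35). Its near-identical copy AT5G43640 was at 0 to 0.123 RPKM in WT. AT1G33840, named after its values were seen, is the neighbour 2541 bases away on the same strand. It was at 0.721, 0.379 and 0.0743 RPKM in WT and 0.397, 0.202 and 0.181 in pkl. In nrpd1 it was at 22.8, 13.7 and 18.7 RPKM (log2 difference from WT 5.47, SE 0.48, limma adjusted p = 0.00017). In nrpe1 it was at 19.8, 14.2 and 19.8 RPKM (5.44, SE 0.48, limma adjusted p = 0.000185).

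SDC, an F-box gene that is silent in vegetative tissue when its promoter repeats are methylated, was on in all 3 mutants. It was at 0.0791, 0.0935 and 0.0367 RPKM in WT (2, 2 and 1 reads), 0.863, 0.730 and 0.848 in pkl (22, 22 and 19 reads), 1.65, 1.55 and 0.856 in nrpd1 (43, 46 and 25 reads) and 1.25, 1.48 and 2.11 in nrpe1 (29, 15 and 54 reads). The lowest nrpd1 library lay within the range of pkl, and the other RdDM libraries lay above it. The mean was at least 11.0-fold the 3-read level of WT in nrpd1 and at least 13.1-fold in nrpe1. The difference from WT was 3.06 on the log2 scale in nrpd1 (SE 0.29) and 3.32 in nrpe1 (SE 0.29).

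AT1G20795, an F-box gene with a single exon, separated the 2 RdDM mutants. It had no read in any WT or nrpd1 library. In nrpe1 it was at 0.288, 0.883 and 0.653 RPKM on 6, 8 and 15 reads, and in pkl at 1.23, 1.37 and 0.698 RPKM on 28, 37 and 14 reads. nrpe1 and nrpd1 thus did not overlap, while nrpe1 and pkl did. The mean in nrpe1 was at least 5.12-fold the 3-read level of the nrpd1 libraries and 4.43-fold that of the WT libraries. Its level was lower in nrpd1 than in nrpe1 by a log2 difference of -2.72 (SE 0.37, limma adjusted p = 0.00618), and its difference between nrpe1 and WT was 2.72 (SE 0.37). The spread here was pooled over all 12 libraries, and the rule limited that of WT. With only the 6 libraries compared, AT1G20795 was not called between nrpd1 and nrpe1 (SE 0.46, limma adjusted p = 0.182).

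AT1G30140, the gene with a Myb/SANT-like domain, lay between. It was at 0.057, 0.0673 and 0 RPKM in WT (1, 1 and 0 reads), 0.791, 1.24 and 0.642 in pkl (14, 26 and 10 reads), 0.498, 0.291 and 0.148 in nrpd1 (9, 6 and 3 reads) and 0.371, 0.997 and 0.393 in nrpe1 (6, 7 and 7 reads). All nrpd1 and nrpe1 libraries were above all WT libraries. On the log2 scale its difference from WT was 1.49 in nrpd1 (SE 0.44) and 2.20 in nrpe1 (SE 0.44), less than that of SDC in either mutant.

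**Figure D4:**
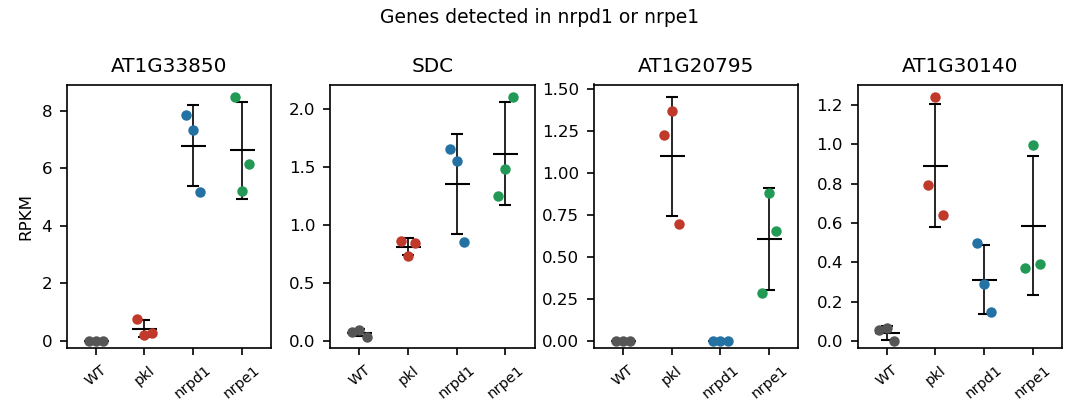
RPKM of the 4 genes detected in nrpd1 or nrpe1, with 1 point for each library and the mean ± SD of the 3 libraries of a group. AT1G33850 is near 7 RPKM in nrpd1 and nrpe1 and under 0.8 in pkl, SDC is on in all 3 mutants, AT1G20795 is at 0 in nrpd1 but not in nrpe1, and AT1G30140 is low in nrpd1 and higher in nrpe1 and pkl.

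Over the whole set, the difference between nrpd1 and nrpe1 is the one test in which neither group entered the rule. Its spread was still pooled over all 12 libraries, WT and pkl among them. The rule held WT at or below 0.1 RPKM, which limits the spread of WT, so the p-values are not independent of the rule. AT1G20795 was the only one of the 43 called, where 0.613% of all 23669 features tested were called. With only the 6 libraries compared, AT1G20795 was not called (SE 0.46, limma adjusted p = 0.182). 2 of the 43 had an unadjusted p under 0.05. The matching share of all features was not taken, so nothing is read from that count. The median log2 difference of the 43 genes was -0.14, against 0.03 over all features, with 15 higher in nrpd1, 23 higher in nrpe1 and 5 equal. SDC (-0.26, SE 0.29) and AT1G33850 (0.04, SE 0.35) were among those not called, both with a limma adjusted p of 1.

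The rule set the upper limit of WT, so the fits against WT reuse values that chose the genes, and their counts are given as a description only. In nrpd1, AT1G33850 and SDC passed the call thresholds (2 of 43), and 0.380% of all features were called higher. In nrpe1, AT1G33850, SDC and AT1G20795 passed (3 of 43), and 0.351% of all features were called higher. All features were not limited in WT as the 43 were, so nothing is read from these shares. All libraries lay above all WT libraries for 5 genes in nrpd1 (AT1G30140, SDC, AT4G38870, AT1G27860 and AT1G33850) and for 8 in nrpe1 (these 5, AT1G20795, AT3G32920 and RR18). Among the 10764 nuclear genes silent in WT, 85 (0.790%) did so in nrpd1 and 85 in nrpe1. Only 2511 of the 10764 had a read in any library, as all 43 do by the rule, and the others could not be among the 85. The share among genes with a read is thus higher than 0.790%, and no enrichment is read from these counts. For AT4G38870, AT1G27860, AT3G32920 and RR18 the values rest on 1 to 3 reads a library. All nrpd1, nrpe1 and pkl comparisons with WT share the same 3 WT libraries.

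The 39 other genes, summed without AT1G33850, SDC, AT1G20795 and AT1G30140, had 1209 to 1717 reads in a pkl library, or 75.7 to 80.0 RPM (reads scaled to the library total, with no correction for length). They had 34 to 38 reads in an nrpd1 library (1.66 to 1.83 RPM), 19 to 40 in an nrpe1 library (1.86 to 2.64 RPM) and 18 to 30 in a WT library (1.17 to 1.55 RPM). Between 16 and 20 of them had any read in an nrpd1 library, 16 to 24 in an nrpe1 library and 14 to 21 in a WT library. The highest mean of any was 0.143 RPKM in nrpd1 and 0.233 in nrpe1, the latter for AT2G16340 on 2 reads. Only 6 had more than 3 reads in an RdDM library. These were AT2G18590, AT5G18320 (5 reads in nrpd1 replicate 3 and 4 in nrpe1 replicate 3), AT3G23360 (5 in nrpd1 replicate 3), AT2G34700 (4 in nrpd1 replicate 1), AT3G61028 (4 in nrpd1 replicate 2) and AT5G09910 (4 in nrpe1 replicate 1).

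A short list of 4 genes known or described as silenced by DNA methylation (SDC, FWA, QQS and AT1G60110) was read in the same fits. SDC belongs to the 43. AT1G60110, which the study chose on these samples and which is therefore no independent evidence, was at 1.74 ± 0.21 RPKM in WT (SD, n = 3), 5.61 ± 1.88 in pkl, 5.64 ± 0.74 in nrpd1 and 10.1 ± 2.62 in nrpe1. It rose by 1.64 on the log2 scale in nrpd1 (SE 0.25, limma adjusted p = 0.009) and by 2.43 in nrpe1 (SE 0.25, limma adjusted p = 0.000699). FWA had a mean of at most 0.0157 RPKM in any group and QQS was at 0 in all 12 libraries. Neither of these had enough signal to be tested. Both genes tested, SDC and AT1G60110, passed the call thresholds upwards in nrpd1, where 0.380% of all features did, and in nrpe1, where 0.351% did. The rule limited SDC in WT and the study chose AT1G60110 on these samples, so nothing is read from this count.

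The divergent neighbours AT4G38870 and ASE3 were both on in pkl, as the rule requires of every member. AT4G38870, an F-box gene, was at 0.774, 0.618 and 0.831 RPKM (18, 17 and 17 reads), and ASE3 at 0.965, 0.728 and 0.470 RPKM (28, 25 and 12 reads). In WT they had 0, 0 and 1 and 1, 1 and 0 reads. In the RdDM mutants ASE3 had no read in any of the 6 libraries. AT4G38870 had 1 to 3 reads in each, at 0.0842, 0.111 and 0.075 RPKM in nrpd1 and 0.0471, 0.217 and 0.0427 in nrpe1. At 3 reads or fewer neither gene was above the floor of detection, so no difference between them is read from these libraries. AT4G34740, the annotated best match of ASE3 among proteins, was at 21.6 ± 4.70 RPKM in pkl (SD, n = 3).

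The genes next to the 43 were read in the same fit. Of 84 direct neighbours that are not members, 61 could be tested, and limma called none of them higher or lower in pkl, where 0.984% of all features were called higher and 0.913% lower. 13 had an unadjusted p under 0.05, and the voom method called 1. The matching shares of all features were not taken, so nothing is read from either count. With no minimum fold, 2 had an adjusted p under 0.05, AT3G23050 and AT1G24530, where 3.17% of all features did. AT1G24530, beside CYP86C1, rose from 18.2 ± 2.74 RPKM in WT to 35.2 ± 1.79 in pkl (log2 difference 0.95, SE 0.16, limma adjusted p = 0.011). The median log2 difference of the 61 neighbours between pkl and WT was 0.08, against 0.07 over all features, with a range of -1.85 to 1.19. The lowest, named after its values were seen, was AT2G18600, a ubiquitin-conjugating enzyme family gene that ends 300 bases from the end of AT2G18590 on the opposite strand. It was at 2.63, 4.27 and 4.20 RPKM in WT, 1.24, 0.881 and 0.740 in pkl, 0.191, 0.559 and 1.42 in nrpd1 and 0.784, 0.656 and 0.841 in nrpe1, so that no library of any mutant reached the WT range. In pkl its log2 difference was -1.85 (SE 0.49, limma adjusted p = 0.0748, and 0.0389 with voom), in nrpd1 it fell by 2.48 on the log2 scale (SE 0.49, limma adjusted p = 0.0384), and in nrpe1 it was -2.12 (SE 0.49, limma adjusted p = 0.206). AT2G18590 itself was on in pkl alone.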

How the data were processed

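The RPKM values of 12 libraries were deposited by the authors, who per their methods trimmed stranded paired-end reads of poly(A) RNA (Trim Galore 0.4.0), aligned them to TAIR10 with Subread 1.5.1 and counted them over genes and TEs. How strand and reads with several positions were handled is not given in the sources used here. RPKM divides by the library total, so abundant transcripts shift the other values. Because values rise in steps of 1 read, read numbers could be recovered, and all of the 28130 features above 0 came out whole (within 0.001). 0 columns of single samples stayed unused.

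The 43 genes, the gene lists and the tests were chosen with earlier results of these data known. limma 3.58.1 (R 4.3.3) was fitted to log2(RPKM + 0.1) of all 12 libraries, without covariates, over the 23669 features with at least 0.1 RPKM in at least 3 libraries. All 43 genes passed this filter, each through its pkl libraries. p-values are two-sided and carry a Benjamini-Hochberg adjustment across the whole table, and a call needed an adjusted p under 0.05 and an absolute log2 difference of at least 1. The floor of detection was set at 3 reads, which covers counting error only. Alternatives changed the pseudocount, filter, scaling, libraries, replicate block and test (voom on the recovered reads). Replicate numbers come from the sample titles, and same-numbered libraries deviated together in every pair (correlations of 0.36 to 0.85 over 17441 features), so a fit with the replicate number as a block was run as an alternative to the main fit, which has none.

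All 43 genes are named. Values by library are given for the 10 highest in pkl, those detected in nrpd1 or nrpe1, those called, direct neighbours and those at the limits of the rule, and for others where a group is described. Positions, products, upstream sequences and the miRNA are from RefSeq (TAIR10.1), in which all 43 were found by locus tag, and copies were sought with BLAST+ 2.17.0 (at least 95% identity over at least 50 bases).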

Additional observations from a re-analysis of the deposited data

Results flagged for a closer look

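AT1G20795 differed between the RdDM mutants: no read was found in the 3 nrpd1 libraries and 6, 8 and 15 reads in the 3 nrpe1 libraries, a log2 difference of -2.72 (SE 0.37, limma adjusted p = 0.00618). All 3 nrpe1 libraries were higher. The spread was pooled over all 12 libraries, among them WT, which the rule limited. With only the 6 libraries compared, AT1G20795 was not called (limma adjusted p = 0.182). Groups of 3 libraries were not screened for single outlying libraries.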

How the results depend on the processing

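The set shrank to 25 genes with WT at most 0.05 RPKM and to 20 with pkl at least 0.4 RPKM. It held 35 with more than 3 reads in each pkl library, 38 after median-ratio scaling, and 51 to 61 when 1 WT or pkl library was left out. The member called between nrpd1 and nrpe1 was lost (0 called) with a pseudocount of 1, where AT1G20795 had a log2 difference of -0.67 (adjusted p = 0.108), and with only the 6 libraries compared (adjusted p = 0.182). Over the other alternatives its adjusted p was under the threshold, and leaving out a library gave 1 call each time, with -3.11 to -2.43. The fits against WT, whose limit the rule set, are descriptions. In these fits AT1G20795 was likewise lost in nrpe1 with a pseudocount of 1 and with only 6 libraries, so that 2 members were called. The replicate block, which added AT1G30140, and a pseudocount of 0.01 each gave 4. AT1G33850 and SDC passed the thresholds against WT in both mutants under all 14 alternatives. These alternatives reuse the WT libraries that the rule limited, so this too is only a description. Against nrpe1 the replicate block gave 1 call and against WT in nrpd1 it gave 2, as without it. With a limit of 0.4 RPKM, 2 genes were detected in nrpe1 in place of 4, and leaving out a library gave 2 to 3 in nrpd1 and 4 to 5 in nrpe1. Depth limits detection: in nrpe1 replicate 2, 3 reads in 1 kb are 0.416 RPKM. The cause of these changes was not tested.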
